A study of Mus musculus with 4 samples.

Results

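The engineered features are 6 rows of the gene list that are not ordinary mouse genes: CRE-ERT2, UPRT_short and EGFP, which carry no mouse identifier, and 3 named fragments of the genes under study, Foxa1_1, Foxa1_2 and Foxa2_1. They were taken by symbol from the 28006 features counted in each of 4 single-cell RNA libraries of murine lung adenocarcinoma. Their counts were read in every barcode with at least 1000 unique molecular identifiers (UMIs, each standing for 1 captured RNA molecule) and at most 20% mitochondrial UMIs. Epithelial cells were those with at least 2 UMIs summed over Epcam, Krt8, Krt18 and Cdh1 and none of Ptprc, the leukocyte antigen CD45.

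The KPF1F2 libraries came from mice with the alleles Foxa1flox and Foxa2flox beside p53frt and Rosa-FSF-CreERT2, and the KP libraries from mice labelled Foxa1flox/+ and Foxa2flox/+ with all other listed alleles the same. All mice were of mixed 129/B6 strain, and all tumours were started with Ad5-mSPC-FlpO, an adenovirus that makes Flp recombinase under a surfactant protein C promoter. Every mouse, KP mice included, received tamoxifen at 120 mg/kg in 4 daily injections at week 10 after initiation, and tumours were collected at week 12. In KP mice Cre can thus act on 1 copy of each Foxa gene. For each genotype 1 library was made before and 1 after depletion of CD45+ and CD31+ cells, and the labels do not give the mice behind each. Neither the ages nor the number of mice could be read from the labels.

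CreERT2 is a Cre recombinase joined to a mutated oestrogen receptor domain, which holds it out of the nucleus until tamoxifen binds. In these mice it sits in the Rosa26 locus behind a stop cassette that Flp removes, so that only cells reached by Flp should make it. Cre then deletes the DNA between loxP sites in the floxed Foxa1 and Foxa2 alleles. FOXA1 and FOXA2 are forkhead pioneer factors that open chromatin in lung, liver and gut epithelium. UPRT, uracil phosphoribosyltransferase, is used to tag the RNA of chosen cells, and EGFP is a fluorescent reporter. One published mouse line carries a floxed GFP before UPRT, so that Cre replaces one transcript with the other. The genotypes in the labels list neither a UPRT nor an EGFP allele, and whether these mice carried that line is not stated.

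In the GRCm38 annotation, Foxa1 (ENSMUSG00000035451) lies at chr12:57540628-57546916 on the minus strand. Its transcript Foxa1-201 has 2 exons, at chr12:57545664-57546121 and chr12:57540628-57543360. Foxa2 (ENSMUSG00000037025) lies at chr2:148042877-148046969 on the minus strand, and its transcript Foxa2-201 has 3 exons. The features list 2 Foxa1 pieces and 3 Foxa2 pieces, but not which stretch of the gene each stands for or which exon is floxed. No file used here holds the sequence of an added feature or a piece, so none is printed.

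The libraries held 47805086 to 63010016 UMIs. After the filters 3518 KPF1F2 and 3817 KP cells remained pre-depletion and 2581 KPF1F2 and 3630 KP cells post-depletion, of which 223, 751, 2110 and 3439 were epithelial in the same order, with medians of 19192, 15510, 17776 and 10197 UMIs. Pairs of libraries shared 1 to 5 cell barcodes. With 1 library per group no test was run: every difference below is between libraries, and each interval is a 95% interval that covers counting error only. The genotypes also differed in sex-linked genes, which cannot be told apart from the Foxa alleles: Xist stood at 0.218 and 0.278 CPM (counts per 1000000 UMIs) in the KPF1F2 libraries, against 834 and 883 CPM in KP. The title of the KPF1F2 pre-depletion library begins with a different number from those of the other 3, and the labels do not say what it stands for. Of the lung markers, 6 alveolar type 2 genes summed to 54289 to 132333 CPM in epithelial cells of the 4 libraries and to 1504 to 48973 CPM in all other cells. In the pre-depletion libraries 9 of 223 KPF1F2 and 40 of 751 KP epithelial cells had more macrophage than epithelial marker UMIs, and post-depletion none did in either genotype. Those cells together held 0 and 1 CRE-ERT2 UMIs and no UPRT_short UMI.

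CRE-ERT2, the transcript of the inducible recombinase, was found in all 4 libraries. Epithelial cells held 80.2% of its UMIs in KPF1F2 and 79.8% in KP pre-depletion, and 98.6% in KPF1F2 and 98.5% in KP post-depletion. Its level in epithelial cells was 15.5 CPM (12.4 to 19.0) in KPF1F2, against 35.5 CPM (32.8 to 38.4) in KP pre-depletion. Post-depletion it was 28.0 CPM (26.5 to 29.4) in KPF1F2 and 34.4 CPM (32.8 to 36.1) in KP. KPF1F2 was thus lower in both states, with a count ratio over KP of 0.436 (0.345 to 0.545) pre-depletion and 0.813 (0.757 to 0.873) post-depletion. On the log2(CPM + 1) scale used for all folds here, the differences were −1.15 and −0.29. As background, 8.56% pre-depletion and 8.58% post-depletion of all genes that averaged at least 20 CPM differed 2-fold between the genotypes. The share at least 2-fold lower in KPF1F2, as CRE-ERT2 was pre-depletion, was 3.18% pre-depletion and 3.56% post-depletion, and the share at least 2-fold higher was 5.38% and 5.02%. Pre-depletion those were 306 higher and 181 lower genes, a split that became 236 and 235 with TMM scaling.

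**Figure D1:**
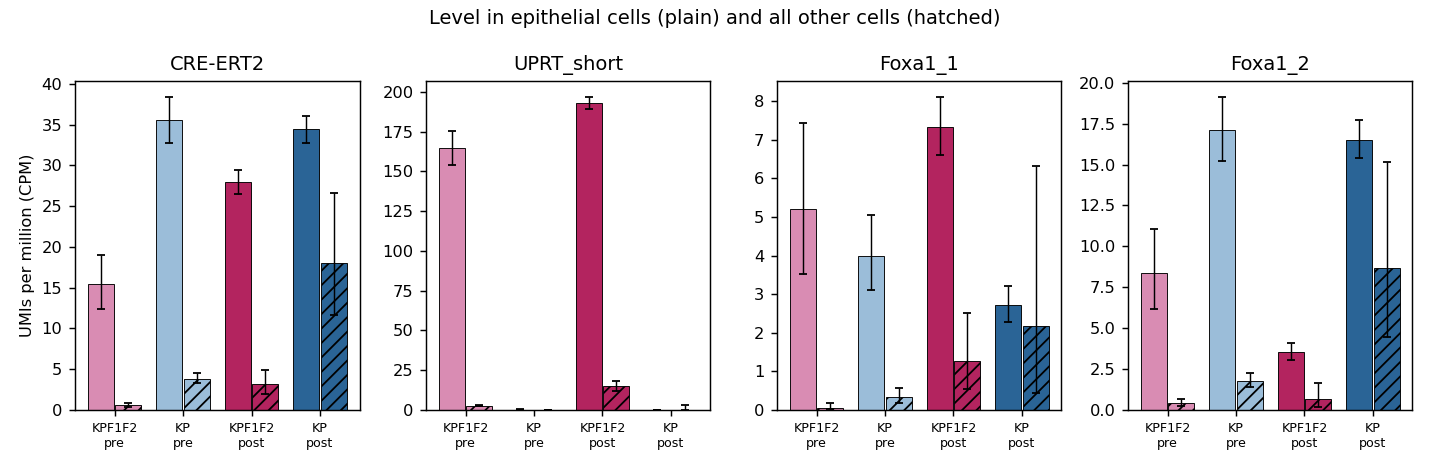
Level (CPM, y axis, separate scale per panel) of 4 engineered features in the 4 libraries (x axis) for epithelial cells (plain bars) and all other cells (hatched bars), with exact 95% Poisson intervals for counting error. UPRT_short reaches 164.57 and 193.09 CPM in KPF1F2 epithelial cells and is at 0 in KP, while Foxa1_1 and Foxa1_2 move in opposite directions between the post-depletion libraries.

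In all other cells taken as 1 class, CRE-ERT2 stood at 0.547 CPM (0.343 to 0.829) in KPF1F2 and 3.81 CPM (3.23 to 4.45) in KP pre-depletion, and at 3.18 CPM (1.94 to 4.91) in KPF1F2 and 18.0 CPM (11.7 to 26.6) in KP post-depletion. The last value comes from 25 UMIs in 191 cells, of which 9.95% had a UMI: 14 UMIs lay in barcodes with both epithelial markers and Ptprc and 11 in unclassified cells. Leukocytes, defined by Ptprc with fewer than 2 epithelial marker UMIs, had 0 CRE-ERT2 UMIs among 2199 KPF1F2 cells and 5 among 1845 KP cells pre-depletion. Mesenchymal cells had none in either KPF1F2 library. Pre-depletion, most CRE-ERT2 outside epithelial cells lay in barcodes that had both epithelial markers and Ptprc: 22 UMIs in 641 such KPF1F2 barcodes and 148 UMIs in 728 such KP barcodes. Doublets were not removed, and whether these barcodes hold more than 1 cell was not tested.

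CRE-ERT2 was detected in a larger share of deeper cells in each library. Among epithelial cells with 30000 or more UMIs, 40.3% in KPF1F2 and 73.1% in KP had at least 1 CRE-ERT2 UMI pre-depletion, and 55.9% in KPF1F2 and 72.4% in KP post-depletion. Among cells with under 3000 UMIs the share was 0% in KPF1F2 and 6.72% in KP pre-depletion, and 4.50% in KPF1F2 and 9.26% in KP post-depletion. Thinning every cell to 5000 UMIs gave 8.12% (4.71 to 12.9) in KPF1F2 and 13.2% (10.5 to 16.4) in KP pre-depletion, against 23.3% and 34.1% unthinned. Post-depletion it gave 11.1% (9.65 to 12.8) in KPF1F2 and 13.8% (12.5 to 15.2) in KP, against 28.2% and 28.8% unthinned. Thinning left out 26 KPF1F2 and 207 KP cells pre-depletion and 466 KPF1F2 and 992 KP cells post-depletion. Leukocytes, which should lack the transcript, gave 0% in both pre-depletion libraries after the same thinning, and 0% in KPF1F2 and 0.271% in KP unthinned at median depths of 5100 and 6392 UMIs. A cell with no CRE-ERT2 UMI is therefore not shown to lack the transcript, least of all a shallow one.

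UPRT_short was detected in the 2 KPF1F2 libraries alone. It had 1065 UMIs pre-depletion and 10230 post-depletion in KPF1F2 over all barcodes, against 0 UMIs in all barcodes of both KP libraries. In epithelial cells that was 165 CPM (154 to 175) in KPF1F2 pre-depletion and 193 CPM (189 to 197) post-depletion. With 3 counts as the limit for a count of 0, the KPF1F2 level was at least 950.1-fold higher than in KP pre-depletion, and post-depletion the bound was 3137-fold. The mouse gene Uprt, a separate row, stood at 0.695 CPM in KPF1F2 and 2.19 CPM in KP pre-depletion and at 2.69 CPM in KPF1F2 and 2.36 CPM in KP post-depletion. Within the KPF1F2 post-depletion library Uprt was at 4.01 CPM (3.02 to 5.24) in cells with 5 or more UPRT_short UMIs and 1.94 CPM (1.49 to 2.48) in cells with none, at median depths of 39256 and 15240 UMIs. Pre-depletion it had 1 and 3 UMIs in those classes. Because KP mice were not stated to carry or lack a UPRT allele, the absence in KP cannot be told apart from a difference in alleles.

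Within KPF1F2, UPRT_short was an epithelial transcript. All other cells together had 2.61 CPM (2.14 to 3.16) pre-depletion and 14.6 CPM (11.8 to 17.9) post-depletion. Of the 37 other cells with a UMI pre-depletion 33 had just 1, and the 2 with 5 or more UMIs, which held 67 of 105 UMIs, also had 2 or more epithelial marker UMIs beside Ptprc. Post-depletion the 4 other cells with 5 or more held 77 of 92 UMIs, and all 4 had epithelial markers. Leukocytes gave 1.00% (0.628 to 1.51) of cells with a UMI and 1.09 CPM pre-depletion, and mesenchymal cells gave 2.75% (1.33 to 4.99) and 2.09 CPM post-depletion, at median depths of 5100 and 14112 UMIs. The epithelial shares, 19.3% and 23.8%, lay above these. The labels do not say which cells can make UPRT_short, and the part of other cells' RNA in the leukocyte and mesenchymal shares was not tested.

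Expression of UPRT_short was uneven among epithelial cells. Cells with a UMI had a median of 6 UMIs in both libraries, a highest value of 130 pre-depletion and 597 post-depletion, and means of 22.0 and 19.7. The 26 cells with 5 or more UMIs pre-depletion held 96.2% of all epithelial UPRT_short UMIs, and the 278 such cells post-depletion held 95.6%. The top 10 cells alone held 75.3% pre-depletion and 24.2% post-depletion, so the pre-depletion level rests on few cells: without the deepest 5% of cells it was 76.5 CPM. CRE-ERT2 was less uneven, with a highest value of 8 and 25 UMIs per cell in KPF1F2 and 16 and 12 in KP pre- and post-depletion. Its cells with 5 or more UMIs held 21.3% and 36.9% of its UMIs in KPF1F2, although the top 10 of the 52 KPF1F2 cells pre-depletion held 46.1%.

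UPRT_short was found in a larger share of cells with CRE-ERT2 than of cells without it, although most cells with either feature had just 1 of them. Pre-depletion, 24 of 52 KPF1F2 epithelial cells with a CRE-ERT2 UMI had UPRT_short (46.2%, 32.2 to 60.5), against 19 of 171 without one (11.1%). Post-depletion it was 296 of 594 (49.8%, 45.7 to 53.9), against 206 of 1516 (13.6%). Cells with CRE-ERT2 were deeper, with medians of 34649 and 33576 UMIs against 17141 and 12721 in cells without. Among cells with 30000 or more UMIs, 18 of 27 with CRE-ERT2 had UPRT_short pre-depletion (66.7%), against 6 of 40 without (15.0%), and 201 of 334 with CRE-ERT2 post-depletion (60.2%), against 41 of 264 without (15.5%). After thinning to 10000 UMIs the shares were 40.0% against 14.1% pre-depletion and 47.3% against 17.5% post-depletion.

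**Figure D2:**
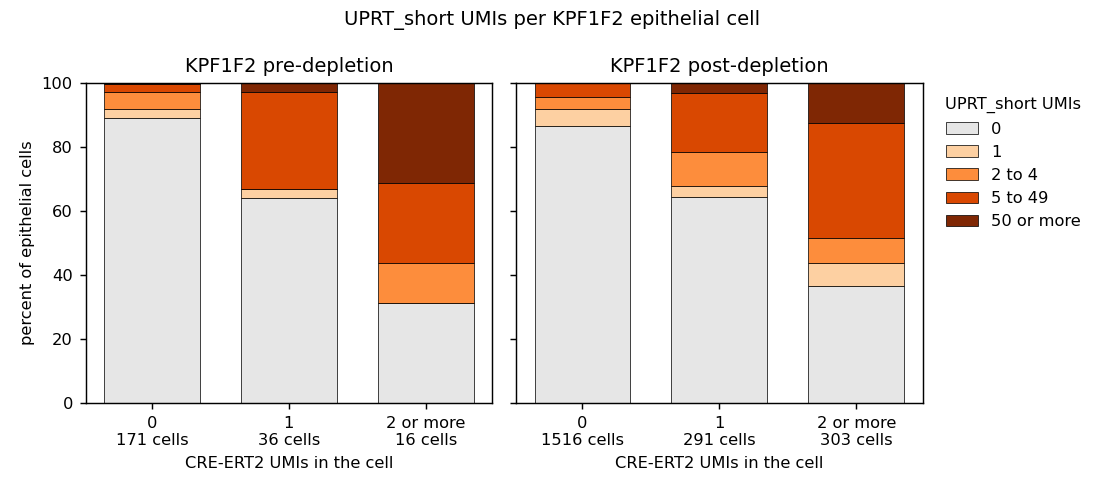
Share of KPF1F2 epithelial cells (y axis, percent) with 0, 1, 2 to 4, 5 to 49 or 50 or more UPRT_short UMIs (colours), for cells with 0, 1 or 2 or more CRE-ERT2 UMIs (x axis), pre-depletion on the left and post-depletion on the right. Cells with no UPRT_short UMI make up 88.9% and 86.4% of cells with no CRE-ERT2 UMI, and 31.3% and 36.6% of cells with 2 or more.

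The overlap was partial in each direction even in deep cells. Read the other way, 18 of 24 deep cells with UPRT_short had CRE-ERT2 pre-depletion (75.0%) and 201 of 242 post-depletion (83.1%, 77.7 to 87.6). With 2 or more CRE-ERT2 UMIs, 5 of 16 cells pre-depletion and 111 of 303 cells post-depletion still had no UPRT_short UMI, at median depths of 49010 and 44670 UMIs. The CPM of UPRT_short was 356 in cells with CRE-ERT2 and 50.7 in cells without pre-depletion, and 341 and 50.6 post-depletion.

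Cells with CRE-ERT2 that had UPRT_short differed from those that had none in marker genes. These levels were read in cells with 10000 or more UMIs: 23 with and 23 without UPRT_short pre-depletion, and 284 with and 261 without post-depletion. The 6 alveolar type 2 genes, which make surfactant and its lamellar bodies, summed to 6654 CPM with and 19373 CPM without UPRT_short pre-depletion and to 5190 with and 19454 without post-depletion. The alveolar type 1 list was also lower, at 3733 with and 6140.5 without pre-depletion and at 3815 with and 5312 without post-depletion. So were the club cell list (169 and 270, then 142 and 201 CPM) and the ciliated cell list (51.7 and 130, then 61.9 and 76.4 CPM). The 4 epithelial genes of the cell rule went the other way, at 17608 with and 5245 without and at 15689 with and 7607 without. Nkx2-1, the lineage factor of lung epithelium, stood at 100 CPM with and 254 CPM without pre-depletion and at 108 with and 204 without post-depletion. The mesenchymal list summed to 35.7 with and 384 without pre-depletion and to 57.7 with and 81.0 without post-depletion, and median depths were 45018 with and 28045 without and 43762 with and 30294 without. The part of depth and of other cells' RNA in these differences was not tested. CRE-ERT2 itself was at 41.0 with and 36.6 without and at 60.2 with and 48.4 without.

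EGFP was all but absent. It had 1 UMI in each KPF1F2 library over all barcodes and 0 in both KP libraries, and none of the UMIs lay in an epithelial cell. In epithelial cells a count of 0 allows up to 0.521 CPM in KPF1F2 and 0.173 CPM in KP pre-depletion and 0.0586 CPM in KPF1F2 and 0.0615 CPM in KP post-depletion. No level, co-detection or likeness could be given for it.

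The whole-gene rows of Foxa1 and Foxa2 had 0 UMIs in every barcode of all 4 libraries, as had Foxa2_2 and Foxa2_3. Reads from the 2 genes were therefore seen only under 3 pieces. Foxa2_1 was the scarcest, with 0 UMIs in KPF1F2 and 3 in KP pre-depletion and 10 in KPF1F2 and 7 in KP post-depletion over all barcodes. In epithelial cells these were 0 and 2 UMIs pre-depletion and 8 and 6 post-depletion, with a post-depletion count ratio of 1.27 (0.386 to 4.44) between KPF1F2 and KP. No difference in Foxa2 was detectable at this depth. All 16 cells with Foxa2_1 that passed the filters were epithelial and had exactly 1 UMI.

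The 2 Foxa1 pieces differed between the genotypes in opposite directions. Foxa1_2 stood at 8.34 CPM (6.15 to 11.1) in KPF1F2 and 17.1 CPM (15.2 to 19.2) in KP epithelial cells pre-depletion, and at 3.55 CPM (3.06 to 4.11) in KPF1F2 and 16.5 CPM (15.4 to 17.7) in KP post-depletion. Its log2 differences were −0.95 and −1.94, and the post-depletion count ratio was 0.215 (0.182 to 0.253). Foxa1_1 stood at 5.21 CPM (3.52 to 7.44) in KPF1F2 and 3.98 CPM (3.10 to 5.04) in KP pre-depletion, and at 7.34 CPM (6.62 to 8.12) in KPF1F2 and 2.71 CPM (2.27 to 3.21) in KP post-depletion. The post-depletion count ratio of Foxa1_1 was 2.71 (2.22 to 3.33), and the pre-depletion ratio, 1.31 (0.823 to 2.04), did not leave 1 beyond counting error and turned round when cells with Ptprc were let in, to a log2 difference of −0.45. In all other cells Foxa1_2 was at 0.423 CPM in KPF1F2 and 1.78 CPM in KP pre-depletion and at 0.636 CPM in KPF1F2 and 8.66 CPM in KP post-depletion. Both pieces lie under the 20 CPM minimum of the gene-wide comparison, so the background shares above do not apply to them directly. Whether reads of 1 transcript can be assigned to either piece is not given in the sources used here.

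Foxa1_2 was all but absent from KPF1F2 cells that had CRE-ERT2. Pre-depletion, 0 of 52 KPF1F2 cells with CRE-ERT2 had Foxa1_2, which allows a share of up to 5.77%, against 112 of 256 KP cells (43.8%, 37.6 to 50.1). Post-depletion it was 7 of 594 KPF1F2 cells (1.18%, 0.475 to 2.41) and 291 of 990 KP cells (29.4%, 26.6 to 32.3). Among cells with 30000 or more UMIs, 0 of 27 KPF1F2 and 82 of 128 KP cells with CRE-ERT2 had Foxa1_2 pre-depletion, and 6 of 334 KPF1F2 and 131 of 278 KP cells post-depletion. The levels in cells with CRE-ERT2 were 0 CPM in KPF1F2, at least 12.6-fold lower than the 17.7 CPM in KP pre-depletion, and 0.398 CPM in KPF1F2 against 16.8 CPM in KP post-depletion, a count ratio of 0.0237 (0.0113 to 0.0441). In the same cells, 3.92% of all genes past the 20 CPM minimum were at least 2-fold lower in KPF1F2 pre-depletion and 4.28% post-depletion.

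In KPF1F2 cells without a CRE-ERT2 UMI the level of the piece was nearer to that in KP. Such cells had 13.3 CPM (9.81 to 17.6) of Foxa1_2 in KPF1F2 and 16.2 CPM (13.3 to 19.5) in KP pre-depletion, and 6.58 CPM (5.64 to 7.64) in KPF1F2 and 16.3 CPM (14.7 to 17.9) in KP post-depletion. At 30000 or more UMIs, 16 of 40 KPF1F2 and 18 of 47 KP cells without CRE-ERT2 had Foxa1_2 pre-depletion, and 53 of 264 KPF1F2 and 43 of 106 KP cells post-depletion. In summed CPM, KP cells had nearly the same Foxa1_2 level with and without CRE-ERT2, at 17.7 and 16.2 pre-depletion and at 16.8 and 16.3 post-depletion. Detection was less alike. At 30000 or more UMIs it was 64.1% with and 38.3% without pre-depletion, at median depths of 53270 and 39330 UMIs. Post-depletion it was 47.1% and 40.6%. Thinned to 5000 UMIs it was 13.9% and 7.63%, then 12.4% and 7.49%. Thinned to 10000 UMIs it was 15.2% and 15.1%, then 17.0% and 14.3%.

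**Figure D3:**
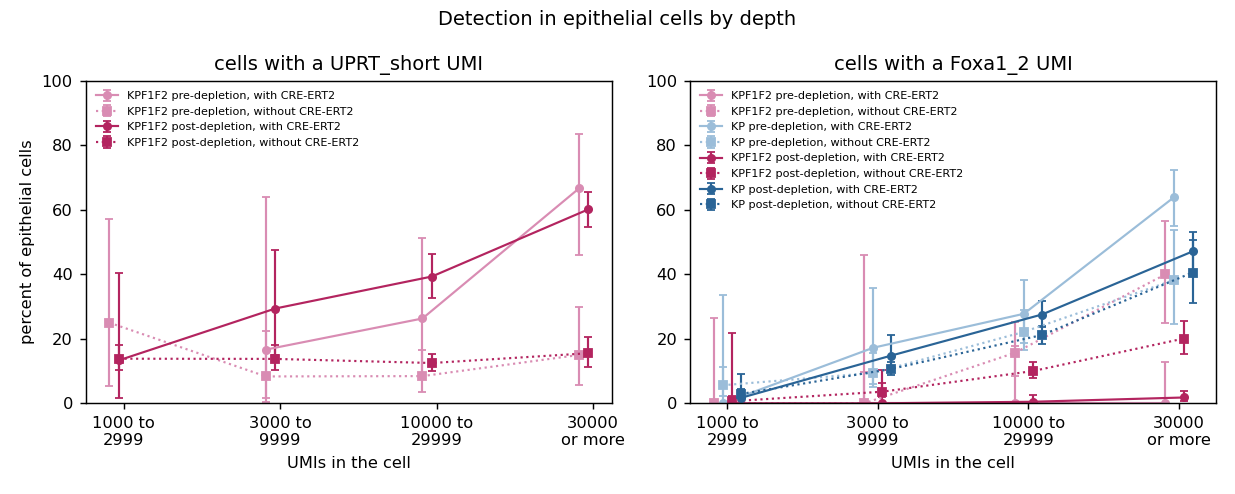
Share of epithelial cells (y axis, percent) with a UPRT_short UMI in the KPF1F2 libraries (left) and with a Foxa1_2 UMI in all 4 libraries (right), by the cell's UMIs (x axis), for cells with CRE-ERT2 (solid lines) and without (dotted lines), with 95% Clopper-Pearson intervals for counting error. At 30000 or more UMIs, Foxa1_2 is found in 1.80% of KPF1F2 cells with CRE-ERT2 post-depletion, against 47.1% of such KP cells.

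Foxa1_1 had the higher level in KPF1F2 cells with CRE-ERT2. It stood at 8.86 CPM (5.33 to 13.8) in cells with and 3.05 CPM (1.52 to 5.45) in cells without CRE-ERT2 pre-depletion, and at 9.64 CPM (8.47 to 10.9) in cells with and 5.13 CPM (4.30 to 6.07) in cells without post-depletion. In KP it stood at 4.56 CPM with and 3.09 CPM without pre-depletion and at 2.25 CPM with and 3.14 CPM without post-depletion. Between the genotypes, cells with CRE-ERT2 differed in Foxa1_1 by a count ratio of 1.94 (1.08 to 3.36) pre-depletion and 4.29 (3.18 to 5.89) post-depletion, both higher in KPF1F2. Pre-depletion, detection depended on how depth was handled. Among KPF1F2 cells with 30000 or more UMIs, Foxa1_1 was in 12 of 27 with CRE-ERT2 (44.4%, 25.5 to 64.7). It was in 2 of 40 such cells without (0.611% to 16.9%), at median depths of 55598 and 43342 UMIs. After thinning to 10000 UMIs it was in 0 of 20 KPF1F2 cells with CRE-ERT2 (0% to 16.8%), against 10 of 149 without (6.71%, 3.27 to 12.0). The thinned intervals overlap, so they give no direction. Post-depletion it was in 130 of 334 with and 49 of 264 without at 30000 or more UMIs. After thinning it was in 27 of 275 with (9.82%, 6.57 to 14.0), against 69 of 1134 without (6.08%, 4.76 to 7.64). Of the genes past the 20 CPM minimum, 8.21% and 5.24% were at least 2-fold higher in KPF1F2 in cells with CRE-ERT2.

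The 2 pieces can be put on 1 scale as the share of Foxa1_1 among the UMIs of both, which does not depend on the total of the library. In KPF1F2 cells with CRE-ERT2 all 19 UMIs were Foxa1_1 pre-depletion (100%, 82.4 to 100), and 242 of 252 post-depletion (96.0%, 92.8 to 98.1). In KP cells with CRE-ERT2 it was 48 of 234 (20.5%, 15.5 to 26.3) pre-depletion and 53 of 449 (11.8%, 8.97 to 15.2) post-depletion. KPF1F2 cells without CRE-ERT2 had 18.6% (9.69 to 30.9) pre-depletion and 43.8% (38.2 to 49.5) post-depletion, against 16.0% and 16.2% in KP. The intervals of KPF1F2 and KP did not overlap in cells with CRE-ERT2 in either state. The levels of the 2 pieces in all epithelial cells summed to 13.6 CPM (10.7 to 16.9) in KPF1F2 and 21.1 CPM (19.0 to 23.4) in KP pre-depletion, and to 10.9 CPM (10.0 to 11.8) in KPF1F2 and 19.2 CPM (18.0 to 20.5) in KP post-depletion, so the sum was lower in KPF1F2 in both states.

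The split was also read by UPRT_short. KPF1F2 cells with both added features had 13 Foxa1_1 and 0 Foxa1_2 UMIs pre-depletion and 129 and 4 post-depletion. Cells with CRE-ERT2 alone had 6 and 0 pre-depletion and 113 and 6 post-depletion, and cells with UPRT_short alone had 2 and 5 pre-depletion and 36 and 7 post-depletion. Cells with neither feature had 9 Foxa1_1 and 43 Foxa1_2 UMIs pre-depletion and 98 and 165 post-depletion, a Foxa1_1 share of 17.3% and 37.3%. The cells with UPRT_short and no CRE-ERT2 UMI had a Foxa1_1 share of 28.6% (3.67 to 71.0) pre-depletion and 83.7% (69.3 to 93.2) post-depletion. These intervals overlap, and the 5 Foxa1_2 UMIs pre-depletion all came from 1 cell.

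**Figure D4:**
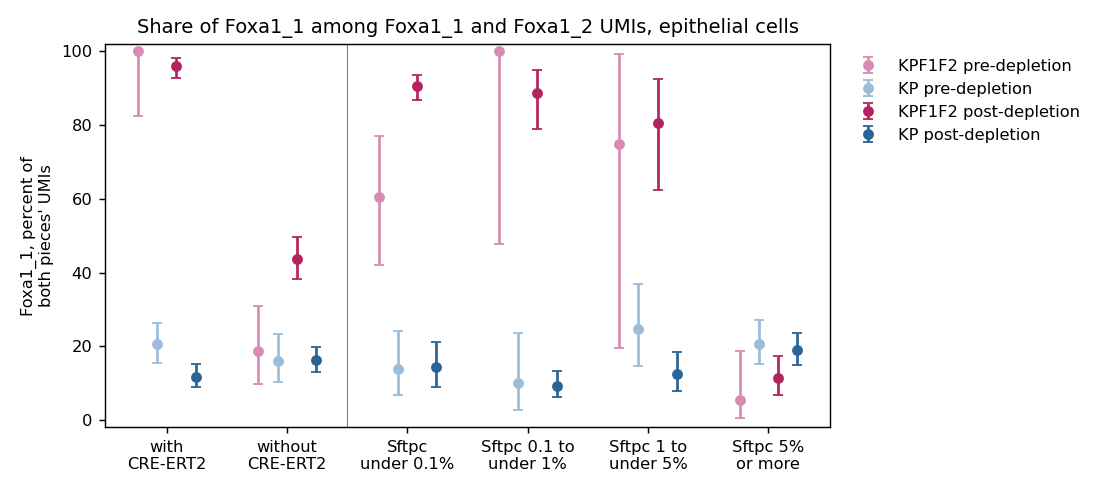
Foxa1_1 as a percent of the UMIs of both Foxa1 pieces (y axis) in epithelial cells of the 4 libraries (colours), by CRE-ERT2 and by the Sftpc share of the cell (x axis), with 95% Clopper-Pearson intervals for counting error. Both KPF1F2 libraries lie at 96.0% or above in cells with CRE-ERT2, and at 5.56% and 11.4% in cells with an Sftpc share of 5% or more. The KP libraries lie at 20.7% and 19.0% in those Sftpc-rich cells, which is not their lowest class.

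Few cells held both pieces in KPF1F2. Of KPF1F2 cells with Foxa1_1, 2 of 26 also had Foxa1_2 pre-depletion and 9 of 295 post-depletion (3.05%, 1.40 to 5.71). In KP it was 34 of 61 (55.7%) pre-depletion and 44 of 125 (35.2%) post-depletion. Among cells with 30000 or more UMIs and Foxa1_1, 1 of 14 KPF1F2 and 26 of 38 KP cells had Foxa1_2 pre-depletion, and 4 of 179 KPF1F2 and 19 of 37 KP cells post-depletion. Deep cells without Foxa1_1 had Foxa1_2 in 28.3% of KPF1F2 and 54.0% of KP cells pre-depletion and in 13.1% of KPF1F2 and 44.7% of KP cells post-depletion. In deep cells Foxa1_2 was thus less frequent beside Foxa1_1 than without it in KPF1F2 and not in KP, but the pre-depletion KPF1F2 interval for cells with Foxa1_1, 0.181% to 33.9%, is wide. Most KP cells with either piece had just 1 of them. After thinning to 10000 UMIs, 2 of 16 KP cells with Foxa1_1 had Foxa1_2 pre-depletion (12.5%), against 15.2% of those without, and post-depletion 11 of 43 (25.6%), against 14.7%.

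The features also varied with Sftpc, the surfactant protein C gene that marks alveolar type 2 cells and whose promoter drove the Flp virus. In KPF1F2 cells where Sftpc made up 5% or more of UMIs, CRE-ERT2 stood at 2.36 CPM (0.643 to 6.05) pre-depletion and 3.41 CPM (2.41 to 4.68) post-depletion, against 26.3 and 24.6 CPM in KP. In cells with under 0.1% Sftpc it stood at 22.7 CPM in KPF1F2 and 52.9 CPM in KP pre-depletion and at 38.6 CPM in KPF1F2 and 46.4 CPM in KP post-depletion. UPRT_short in KPF1F2 was at 272 CPM pre-depletion and 294 CPM post-depletion in cells with under 0.1% Sftpc, and at 8.26 and 9.59 CPM in those with 5% or more. Of the 14 UPRT_short UMIs in Sftpc-rich KPF1F2 cells pre-depletion all came from 1 cell, and post-depletion 23 of 477 such cells (4.82%) had a UMI. Since Sftpc takes part of the total, its share lowers the CPM of every other gene in those cells.

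Foxa1_2 ran against this in KPF1F2. Its level in Sftpc-rich KPF1F2 cells was 20.1 CPM (13.9 to 28.0) pre-depletion and 12.6 CPM (10.6 to 14.8) post-depletion, beside 14.7 and 12.8 CPM in KP. In KPF1F2 cells with under 0.1% Sftpc it was 4.16 CPM (2.22 to 7.12) and 0.896 CPM (0.595 to 1.29), against 18.7 and 15.8 CPM in KP. The genotypes therefore overlapped within counting error where Sftpc was high and not where it was low. Foxa1_1 was lowest in Sftpc-rich KPF1F2 cells, at 1.18 and 1.61 CPM, and not in KP, at 3.86 and 2.99 CPM there and at 3.02 and 2.63 CPM under 0.1% Sftpc.

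**Figure D5:**
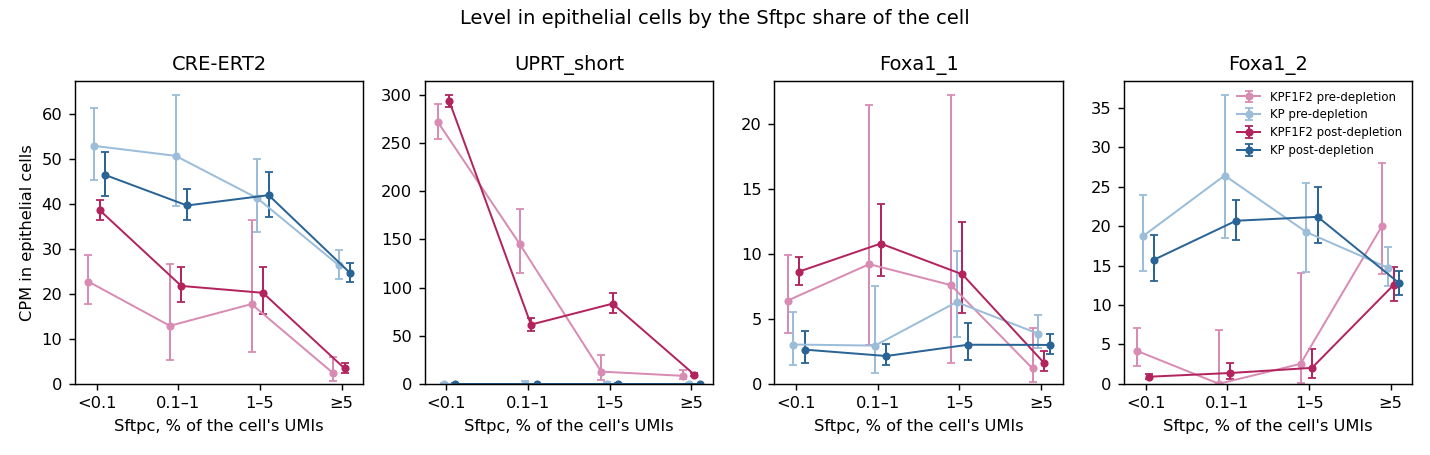
Level (CPM, y axis, separate scale per panel) of 4 engineered features in epithelial cells by the share of Sftpc in the cell's UMIs (x axis, percent), in the 4 libraries (colours), with exact 95% Poisson intervals for counting error. In KPF1F2, CRE-ERT2 and UPRT_short are lowest and Foxa1_2 is highest in cells with 5% or more Sftpc, where Foxa1_2 reaches 20.1 and 12.6 CPM.

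Sftpc and CRE-ERT2 could be separated in part. Sftpc-rich KPF1F2 cells without CRE-ERT2 post-depletion had 13 Foxa1_1 and 140 Foxa1_2 UMIs. The 22 Sftpc-rich KPF1F2 cells with CRE-ERT2 post-depletion had 5 Foxa1_1 and 0 Foxa1_2 UMIs. KPF1F2 cells with under 0.1% Sftpc and no CRE-ERT2 UMI had 77 Foxa1_1 and 19 Foxa1_2 UMIs post-depletion, a Foxa1_1 share of 80.2% (70.8 to 87.6). Pre-depletion the same class went the other way, with 6 Foxa1_1 and 13 Foxa1_2 UMIs, a share of 31.6% (12.6 to 56.6). That share rests on few cells: the 13 Foxa1_2 UMIs lay in 6 cells, with 5 of them in 1 cell. The interval takes each UMI as independent, and the part of the mix of cell types was not tested. Sftpc-rich KPF1F2 cells without CRE-ERT2 had 2 and 34 UMIs pre-depletion. The 3 Sftpc-rich cells with CRE-ERT2 in that library had 0 UMIs of either piece. In KP the Foxa1_1 share lay between 9.36% and 19.0% in all 4 Sftpc classes post-depletion.

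Other transcripts separated cells with and without CRE-ERT2 as well. Sftpc stood at 4205 CPM with and 80385 CPM without CRE-ERT2 in KPF1F2 pre-depletion and at 4349 and 70703 CPM post-depletion, and in KP at 89871 with and 137486 without pre-depletion and at 62263 and 99111 post-depletion. Trp53, the tumour suppressor gene carried as the p53frt allele, stood at 97.9 with and 38.2 without in KPF1F2 pre-depletion and at 91.2 with and 39.5 without post-depletion. In KP it went the same way, at 70.7 with and 34.3 without pre-depletion and at 82.3 with and 54.4 without post-depletion. Club cell genes, which mark airway secretory cells, summed to 206 CPM with and 49018 CPM without in KPF1F2 pre-depletion and to 185 with and 7190 without post-depletion. Mesenchymal genes summed to 66.7 with and 1341 without in KPF1F2 post-depletion, and the part that other cell types took in the cells without CRE-ERT2 was not tested.

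Among related factors, Foxa3, the third FOXA gene, was lower in KPF1F2. It stood at 5.21 CPM (3.52 to 7.44) in KPF1F2 and 12.4 CPM (10.8 to 14.2) in KP epithelial cells pre-depletion and at 5.15 CPM (4.55 to 5.82) in KPF1F2 and 23.3 CPM (22.0 to 24.7) in KP post-depletion. Unlike Foxa1_2 in KPF1F2, Foxa3 was higher in cells with CRE-ERT2 than in those without in each library. Post-depletion it was at 7.53 and 2.87 CPM in KPF1F2 and at 28.7 and 18.2 CPM in KP. Pre-depletion it was at 6.53 and 4.43 CPM in KPF1F2, where the counting intervals overlapped, and at 16.2 and 6.62 CPM in KP. Nkx2-1 was closer between the genotypes, at 181 CPM in KPF1F2 and 195 CPM in KP pre-depletion and at 166 CPM in KPF1F2 and 153 CPM in KP post-depletion. Of a list of 20 forkhead and lung lineage factors, 11 had a mean of 20 CPM in both states. None of these 11 was 2-fold higher or 2-fold lower in both, and Foxa3, under that minimum, was not among them. Of all genes past the minimum, 8.56% were 2-fold apart pre-depletion and 8.58% post-depletion. The share 2-fold apart the same way in both states was not computed. The median log2 differences of the 11 factors were −0.14 and 0.07, beside 0.10 and 0.07 over all genes measured. Hnf4a, an endodermal nuclear receptor below that minimum and named after its values were seen, had 0 UMIs in KPF1F2 and 290 in KP pre-depletion and 19 in KPF1F2 and 1185 in KP post-depletion.

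The genes whose levels most resembled the features were ranked over 34 groups of cells: the epithelial cells of each library in 5 equal parts by Sftpc share, and each leukocyte, endothelial and mesenchymal class with at least 50 cells. The ranking covered 6287 genes, and the correlations are descriptions, since the groups share libraries, depth and cell classes. CRE-ERT2 was most like S100a14 (r = 0.96), Cldn2 (0.96), Serpinb5 (0.95), Akr1c19 (0.94) and Krt18 (0.93), the last of which is part of the epithelial rule. Foxa1_2 was most like Rap1gap (0.94), Pla2g1b (0.90), Ociad2 (0.90), Tspan1 (0.89) and Vsig2 (0.89). UPRT_short had weaker matches in Dhrs1 (0.77), Cpne3 (0.76), DHRSX (0.75), Ly6i (0.75) and Ptp4a2 (0.75), and since it was 0 in every KP group these r values also follow any gene that differs between the genotypes.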

How the data were processed

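The authors deposited matrices of UMI counts per feature and barcode for 4 libraries. Per the file headers, Cell Ranger 6.0.0 produced them, from version 3.1 3′ libraries, per the labels' protocols, on mm10, per the submitters' processing notes. No source used here gives its settings, annotation, strand use or added sequences. The other feature and barcode tables gave names only. From the deposited counts, UMIs were summed over cells and scaled to CPM. Doublets were kept, since the rule that defines the cells has no doublet filter. Intervals are exact Poisson (CPM), conditional binomial (count ratios) and Clopper-Pearson (shares) at 95%, for counting error alone. Counts of 0 allow up to 3 counts. UMIs are 1 per molecule captured. Folds used 1 CPM added, and genes with a mean of 20 CPM entered the background. The fold code was tested on simulated data. Tools were python 3.11.15, scipy 1.17.1 and edgeR 4.0.16 (TMM factors only, as an alternative). GENCODE mouse release 21 gave positions on GRCm38.

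Members, marker lists and factor list were chosen with earlier results of these data known. Named were the members, the other rows of Foxa1 and Foxa2, 8 fixed genes (1 of them, and 1 allele of the mice, not reported here), factors 2-fold apart in both states, and the 5 genes most like a member that had 100 UMIs or more. Trbc2 and Ighm were not used here.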

Additional observations from a re-analysis of the deposited data

Results flagged for a closer look

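The difference in Foxa1_2 between cells with and without CRE-ERT2 had opposite signs in the 2 genotypes. The log2 difference was −3.84 and −2.44 in the KPF1F2 libraries pre- and post-depletion, the first against 0 UMIs in cells with CRE-ERT2 and so set by the added 1 CPM, and 0.12 and 0.0434 in the KP libraries. The difference between the genotypes was not tested, and in KP the counting intervals of cells with and without CRE-ERT2 overlapped.

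The differences in the Foxa1 pieces between cells with 5% or more and under 0.1% Sftpc also had opposite signs in the genotypes. For Foxa1_2 the log2 difference was 2.03 and 2.84 in KPF1F2 and −0.33 and −0.29 in KP, pre- and post-depletion. For Foxa1_1 it was −1.76 and −1.88 in KPF1F2 and 0.27 and 0.14 in KP. In KP the counting intervals of the 2 Sftpc classes overlapped for both pieces in both states. These differences between the genotypes were not tested either.

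UPRT_short was also found in barcodes that the filters removed, with 13 UMIs pre-depletion and 248 post-depletion in KPF1F2, against 0 in such KP barcodes.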

How the results depend on the processing

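The labels give no replicate numbers, so no replicate was left out or used as a block, and genotypes were set side by side within each depletion state. Over 16 alternatives, 154 values were recomputed. Of these, 128 stayed within the counting interval of the reported value, or within 1.5 times of a count of genes, and 26 did not. Letting in cells with Ptprc changed pre-depletion values most. The log2 differences became −1.91 for CRE-ERT2, −0.45 for Foxa1_1 (0.32 as reported) and −1.57 for Foxa1_2, and UPRT_short became 47.1 CPM in KPF1F2, where the class grew to 864 cells. Leaving out the deepest 5% of cells gave 76.5 CPM of UPRT_short pre-depletion and 165 CPM (165.2) post-depletion, and a UPRT_short share among cells with CRE-ERT2 of 29.6% and 45.3%. That share was 31.3% and 36.1% after thinning to 5000 UMIs, and 68.8% and 56.1% when 2 UMIs of each were asked for. With Sftpc and mitochondrial UMIs left out of the total, UPRT_short was at 181 and 211 CPM. Post-depletion it was 197 CPM with a marker sum of at least 5, 203 CPM with at most 10% mitochondrial UMIs, 219 CPM without cells that had Pecam1, Cdh5, Col1a1 or Col1a2, and 204 CPM without cells of more macrophage or mesenchymal than epithelial markers (added after the data were seen). With 5 CPM added, the post-depletion log2 differences were 0.68 for Foxa1_1 and −1.33 for Foxa1_2, and those of Foxa1_2 in cells with CRE-ERT2 were −2.18 and −2.01; with 0.5 CPM they were −5.18 and −4.27. Genes 2-fold apart numbered 1761 and 1700 with no filter, against 487 and 499. The cause of these shifts was not tested, other than the added CPM and the removed filter, which act by construction.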
